A study of Homo sapiens with 9 samples.

Results

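The genes described here are 7 matrix metalloproteinases (MMP1, MMP2, MMP3, MMP10, MMP12, MMP14 and MMP16) and 3 tissue inhibitors of metalloproteinases (TIMP1, TIMP2 and TIMP3), taken by name from the gene symbols of the authors' deposited table. They are 10 of the 64253 Ensembl genes counted, and each symbol had 1 identifier. The rule that picks them uses names and no measured value, but the list was drawn up with earlier results of these data known. RNA was sequenced from IMR90, a line of human fetal lung fibroblasts with a limited lifespan, in 9 libraries from 3 groups with replicates a, b and c. Cells of all groups were grown at 2% oxygen, infected with pLKO.1 lentivirus at population doubling 30, and selected with 3 ug/mL puromycin for 7 days, with a second virus 24 hours after the first. The control group carried the vector, called empty in the sample labels and GFP in the treatment protocol. In the shRRM2 group a hairpin targeted RRM2, a subunit of the enzyme that makes deoxyribonucleotides, and its cells are labelled as senescent. The shRRM2/shp16 group carried that hairpin and another against p16, a product of CDKN2A, and is labelled as a bypass of senescence. No group with the p16 hairpin alone is among these samples, so what that hairpin does without the RRM2 hairpin cannot be read from them. Nothing in the labels states that replicates came from separate infections, so p-values measure the spread between these libraries, which may be technical.

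Matrix metalloproteinases are zinc-dependent endopeptidases that cut collagens, proteoglycans and other matrix and surface proteins. They are made as inactive precursors whose prodomain has to be cut off or displaced, and TIMPs block the active enzymes by binding in the catalytic cleft. Fibroblasts are a main source of both in lung tissue, and secreted collagenase and stromelysins are well known parts of what senescent fibroblasts release. MMP1, MMP3, MMP10 and MMP12 lie side by side in a metalloproteinase cluster on chromosome 11, spanning 104532 bases on the minus strand, whereas the other members are on separate chromosomes.

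The sequence before the transcription start was taken from RefSeq (GRCh38.p14) for members with an entry there. The RefSeq promoter table matched 4 of the 10 members (MMP10, MMP14, TIMP1 and TIMP3), and the 250 bases before the start are shown for 3 of them. The other members had no entry, so not every behaviour described below is covered. Capitals mark matches, on either strand, to the AP-1 motif TGANTCA, to the TATA box TATAAA and to the ETS motif AGGAAG. MMP10 lies at chr11:102780629-102780878 (minus strand), MMP14 at chr14:22836335-22836584 (plus strand) and TIMP3 at chr22:32801455-32801704 (plus strand).
MMP10: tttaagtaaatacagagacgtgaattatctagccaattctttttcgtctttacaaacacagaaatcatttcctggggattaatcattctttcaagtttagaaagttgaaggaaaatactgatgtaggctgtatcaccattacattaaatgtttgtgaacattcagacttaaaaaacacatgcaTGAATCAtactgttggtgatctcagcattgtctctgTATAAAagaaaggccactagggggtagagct
MMP14: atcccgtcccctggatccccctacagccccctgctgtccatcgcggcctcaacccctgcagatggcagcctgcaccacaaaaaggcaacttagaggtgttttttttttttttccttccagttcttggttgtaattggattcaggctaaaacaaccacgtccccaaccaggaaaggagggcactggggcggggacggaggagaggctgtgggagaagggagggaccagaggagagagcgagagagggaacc
TIMP3: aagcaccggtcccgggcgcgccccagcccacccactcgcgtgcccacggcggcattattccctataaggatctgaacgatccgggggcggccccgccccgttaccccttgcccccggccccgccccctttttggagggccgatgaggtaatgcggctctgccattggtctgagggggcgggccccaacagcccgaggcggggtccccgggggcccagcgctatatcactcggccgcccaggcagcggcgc
In MMP10 the AP-1 motif (TGAATCA) starts 67 bases before the transcription start and the TATA box 31 bases before it. Neither MMP14 nor TIMP3 held a match to any of the 3 motifs in its window of 300 bases, which also takes in the 50 bases after the start. The TIMP1 window held the ETS motif 87 bases before the start and no other match. Among all 34796 promoter windows of the same length, 7.7% held the AP-1 motif, 11.6% the TATA box and 33.7% the ETS motif. Bases G and C made up 36.3% of the MMP10 window, 55.0% of MMP14, 65.0% of TIMP1 and 72.7% of TIMP3, against a median of 58.7% over all windows. A match is a description of letters and does not show that a factor binds.

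Gene-assigned counts ranged from 15770895 to 24873291 per library. RRM2 fell from 485 CPM (the count scaled to library size and composition) in control to 62.1 CPM in shRRM2 and stood at 177 CPM in shRRM2/shp16, so the RRM2 level differed between both hairpin groups as well. CDKN2A stood at 6.02, 6.50 and 4.28 CPM, and the difference between shRRM2/shp16 and shRRM2 passed the test (log2 fold change -0.60, edgeR adjusted p = 7.01e-05). That between shRRM2 and control did not (0.11, edgeR adjusted p = 0.431). The authors' deposited table lists CDKN2A between the hairpin groups at -0.55 and not significant (q-value 0.237). Counts cover the whole gene, so they do not measure p16 alone. Reads that fell in no gene made up 17.6% to 18.9% of unique reads in control, 27.7% to 28.8% in shRRM2 and 23.5% to 24.4% in shRRM2/shp16, and their part in the results below was not tested. All 10 fibroblast markers checked, such as COL1A1, COL1A2 and PDGFRA, were at 1 CPM or more in each group. Their summed level was 37940 to 39110 CPM in control, 40940 to 41900 CPM in shRRM2 and 29470 to 30140 CPM in shRRM2/shp16. Of 8 macrophage and leukocyte markers, AIF1 and MARCO were at 0 in all groups, PTPRC in control and ITGAM in shRRM2, and the list summed to 3.65 to 5.68 CPM. The 6 epithelial markers summed to 132.8 to 135.9 CPM in control, 162.8 to 167.5 CPM in shRRM2 and 52.98 to 55.3 CPM in shRRM2/shp16, nearly all of it KRT8 and KRT18, while KRT5 and SFTPC were at 0. The 5 endothelial markers summed to 2.64 to 3.81 CPM in control and shRRM2 and to 5.23 to 5.43 CPM in shRRM2/shp16. Whether these marker levels bear on the metalloproteinases was not tested.

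MMP1 and MMP3 were higher in shRRM2 than in control and higher again with the p16 hairpin added, while MMP10 and MMP12 were above control in shRRM2/shp16. MMP1, the interstitial collagenase that opens the triple helix of fibrillar collagen, stood at 173, 173 and 176 CPM in control a, b and c, at 335, 340 and 346 CPM in shRRM2, and at 745, 737.5 and 724 CPM in shRRM2/shp16. The groups did not overlap, and the libraries of a group lay within a few percent of each other. MMP1 rose 1.96-fold in shRRM2 against control (log2 fold change 0.97 ± 0.029 SE, edgeR adjusted p = 1.02e-29). It rose a further 2.16-fold in shRRM2/shp16 against shRRM2 (1.11 ± 0.027, edgeR adjusted p = 2.42e-33), and was 4.23-fold above control there. In bulk RNA a larger number of cells that make a transcript and more transcript per cell cannot be told apart, which holds for every member.

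MMP3, or stromelysin-1, cuts proteoglycans and fibronectin and can activate other metalloproteinase precursors, including that of MMP1. It stood at 8.09, 7.88 and 9.89 CPM in control, at 17.3, 21.7 and 20.7 CPM in shRRM2, and at 320.6, 320.0 and 324.1 CPM in shRRM2/shp16. Every shRRM2 library was above every control library, and the shRRM2/shp16 libraries were far above both groups. MMP3 rose 2.33-fold in shRRM2 against control (log2 fold change 1.22 ± 0.084 SE, edgeR adjusted p = 1.24e-16) and 16.1-fold in shRRM2/shp16 against shRRM2 (4.01 ± 0.049, edgeR adjusted p = 2.38e-44). Against control the rise in shRRM2/shp16 was 37.6-fold, the largest of the 10 members in that comparison.

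MMP10, or stromelysin-2, is the closest relative of MMP3 and the gene whose AP-1 and TATA motifs are shown above. Its level was 2.22, 3.41 and 2.20 CPM in control, 2.73, 3.00 and 2.98 CPM in shRRM2, and 26.9, 30.0 and 31.3 CPM in shRRM2/shp16. Control and shRRM2 overlapped, with a log2 fold change of 0.17 (95% confidence interval -0.19 to 0.53, edgeR adjusted p = 0.418). In shRRM2/shp16 MMP10 rose 10.1-fold against shRRM2 (3.34 ± 0.11 SE, edgeR adjusted p = 4.29e-28) and 11.4-fold against control. Of the stretches of 50 bases in its transcripts, 3.4% also occur in transcripts of other genes, with MMP3 the gene that shares most.

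MMP12, the macrophage elastase, was the rarest member. It was counted at 23, 10 and 14 reads in control a, b and c, at 5, 4 and 4 reads in shRRM2, and at 57, 54 and 44 reads in shRRM2/shp16, or 0.26 ± 0.050 CPM (SD, n = 3) in shRRM2 and 2.69 ± 0.32 CPM in shRRM2/shp16. The shRRM2 libraries were all below the control libraries and the shRRM2/shp16 libraries all above them. In shRRM2 against control the log2 fold change was -1.61 ± 0.41 (SE, edgeR adjusted p = 8.77e-04), a call limited by the low-count filter as described next, and MMP12 rose 10.2-fold in shRRM2/shp16 against shRRM2 (3.35 ± 0.32, edgeR adjusted p = 3.43e-12). Against control the shRRM2/shp16 level was 3.34-fold higher (edgeR adjusted p = 3.81e-08). MMP12 reached the low-count cutoff of 0.557 CPM in 2 control, 0 shRRM2 and 3 shRRM2/shp16 libraries, so it entered the test through the groups where it is higher. The other 9 members reached the cutoff in all 9 libraries. The limit holds for each of the MMP12 calls, including its rise in shRRM2/shp16. With only the 6 control and shRRM2 libraries in the fit MMP12 did not pass that filter and was not tested. The call in shRRM2 was also lost with limma on the deposited log2 RPKM values without the column of shRRM2 c (adjusted p = 0.0742, from 4.16e-04 to 0.0742 over all alternatives).

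**Figure D1:**
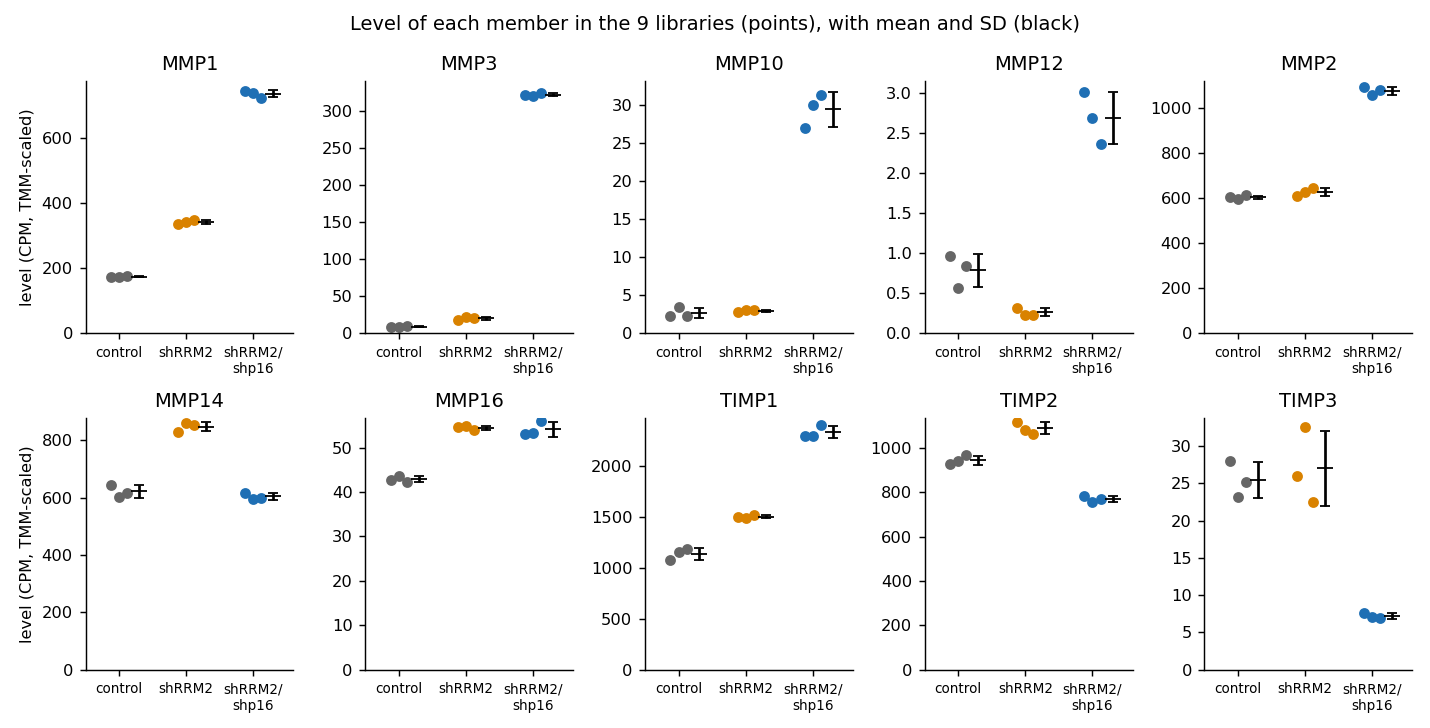
Level of each of the 10 genes in CPM scaled by TMM factors (vertical axes, each from 0) in control, shRRM2 and shRRM2/shp16, with 1 point per library and the group mean ± SD in black. MMP1 climbs in both steps from 173.8 to 340.5 to 735.4 CPM, MMP3 and MMP10 rise mainly in the second step, MMP14 and TIMP2 are highest in shRRM2, and TIMP3 is lowest in shRRM2/shp16.

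The remaining metalloproteinases moved less than those of the cluster in both comparisons of shRRM2/shp16. MMP2, the gelatinase that degrades denatured collagen and basement membrane collagen, stood at 604, 598 and 612 CPM in control, at 611, 628 and 647 CPM in shRRM2, and at 1095, 1060 and 1080 CPM in shRRM2/shp16. Control and shRRM2 overlapped slightly, and the shRRM2/shp16 libraries were all well above both. MMP2 did not pass the test in shRRM2 against control (log2 fold change 0.06, unadjusted 95% confidence interval 0.004 to 0.109, edgeR adjusted p = 0.0595), although without shRRM2 a it did, with 0.08 (adjusted p = 0.016, from 0.00395 to 0.724 over all alternatives). It rose 1.72-fold in shRRM2/shp16 against shRRM2 (0.78 ± 0.026 SE, edgeR adjusted p = 4.29e-28).

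MMP14 is a membrane-anchored metalloproteinase that cuts collagen at the cell surface and, in a complex with TIMP2, activates the MMP2 precursor. Its level was 645, 603.5 and 616.5 CPM in control, 829, 862 and 854 CPM in shRRM2, and 617, 597 and 599.5 CPM in shRRM2/shp16. The shRRM2 libraries stood above all others, while control and shRRM2/shp16 overlapped. MMP14 rose in shRRM2 against control (log2 fold change 0.45 ± 0.027 SE, edgeR adjusted p = 1.5e-18) and fell in shRRM2/shp16 against shRRM2 (-0.49 ± 0.027, edgeR adjusted p = 5.06e-20). Between shRRM2/shp16 and control the difference was -0.04 (95% confidence interval -0.096 to 0.013, edgeR adjusted p = 0.182). Both calls were lost with limma on the deposited log2 RPKM values, at adjusted p = 0.177 and 0.263 (up to 0.189 and 0.308 over all alternatives, from 6.28e-52 and 1.81e-69). Without the column of shRRM2 c, which does not follow its count file, the same fit made both calls (adjusted p = 2.65e-06 and 3.74e-06).

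MMP16, another membrane-anchored member, was measured at 42.7, 43.55 and 42.2 CPM in control, at 54.6, 54.8 and 53.8 CPM in shRRM2, and at 53.0, 53.3 and 56.0 CPM in shRRM2/shp16. Both hairpin groups were above control and overlapped each other. It rose 1.27-fold in shRRM2 (log2 fold change 0.34 ± 0.047 SE, edgeR adjusted p = 2.87e-08) and 1.26-fold in shRRM2/shp16 against control. Between the hairpin groups the difference was -0.009 (95% confidence interval -0.101 to 0.083, edgeR adjusted p = 0.883).

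The inhibitors split in 3 ways. TIMP1, a secreted inhibitor that binds most soluble metalloproteinases and is a weak inhibitor of MMP14, stood at 1074, 1155 and 1183 CPM in control, at 1504, 1496 and 1518 CPM in shRRM2, and at 2298, 2302 and 2410 CPM in shRRM2/shp16. The 3 groups were fully separated, in that order. TIMP1 rose 1.33-fold in shRRM2 against control (log2 fold change 0.41 ± 0.027 SE, edgeR adjusted p = 6.18e-17) and 1.55-fold in shRRM2/shp16 against shRRM2 (0.63 ± 0.027, edgeR adjusted p = 5.09e-24). With limma on the deposited log2 RPKM values these calls were lost, at adjusted p = 0.44 and 0.245, the highest of any alternative (lowest 1.08e-50 and 9.26e-162). Against control TIMP1 was 2.06-fold higher in shRRM2/shp16 (edgeR adjusted p = 5.02e-32), which was also lost there (adjusted p = 0.0617, the highest of any alternative, while edgeR without a low-count filter gave the lowest, printed as 0). Without the column of shRRM2 c the limma fit made the calls of shRRM2/shp16 against shRRM2 (adjusted p = 0.0148) and against control (adjusted p = 9.37e-04), but not that of shRRM2 against control (adjusted p = 0.143).

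TIMP2, which both inhibits metalloproteinases and bridges the MMP2 precursor to MMP14, was counted at 928, 940 and 966 CPM in control, at 1118, 1082 and 1064 CPM in shRRM2, and at 782, 757 and 770 CPM in shRRM2/shp16. It was highest in all shRRM2 libraries and lowest in all shRRM2/shp16 libraries. TIMP2 rose 1.15-fold in shRRM2 against control (log2 fold change 0.20 ± 0.026 SE, edgeR adjusted p = 3.59e-09) and fell in shRRM2/shp16 against shRRM2 (-0.50 ± 0.026, edgeR adjusted p = 3.91e-21), to below control (-0.295 ± 0.026, edgeR adjusted p = 1.2e-13). Of its exon bases, 10.0% are shared with AC022966.1 on the other strand and CEP295NL on its own, so a part of its reads is uncertain. AC022966.1 and CEP295NL had 109 and 816 counts in all 9 libraries together.

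TIMP3, the inhibitor that stays bound to the matrix and also blocks ADAM proteases, was measured at 27.95, 23.1 and 25.2 CPM in control, at 26.0, 32.5 and 22.55 CPM in shRRM2, and at 7.66, 7.12 and 6.88 CPM in shRRM2/shp16. Control and shRRM2 overlapped, and the shRRM2/shp16 libraries were all well below them. TIMP3 fell in shRRM2/shp16 against shRRM2 (log2 fold change -1.90 ± 0.10 SE, edgeR adjusted p = 3.15e-20) and against control (-1.82 ± 0.10, edgeR adjusted p = 7.38e-20), which left 0.267 and 0.282 of their levels. In shRRM2 against control the difference was 0.08 (95% confidence interval -0.087 to 0.246, edgeR adjusted p = 0.417). It turned to -0.075 without shRRM2 b and passed the test without shRRM2 c (0.20, adjusted p = 0.031, from 0.031 to 0.866 over all alternatives).

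Read against the background, 7 of the 10 members passed the test in shRRM2 against control, where 60.9% of the 16561 genes tested did, so the count alone is near the background. Of these 6 rose (29.0% of all tested genes rose) and MMP12 was called lower (31.8% were), with the limit given above. In shRRM2/shp16 against shRRM2, 9 members passed, where 61.1% of all tested genes did. MMP1, MMP2, MMP3, MMP10, MMP12 and TIMP1 rose (6, background 31.9%), MMP14, TIMP2 and TIMP3 fell (3, background 29.1%), and MMP16 did not pass. In shRRM2/shp16 against control, 9 passed where 62.4% of all genes did, with 7 higher (background 30.0%) and TIMP2 and TIMP3 lower (background 32.4%). Changes of at least 2-fold were found for 2 members in shRRM2 against control, where 10.1% of tested genes reached that size: MMP3 rose (background 6.81%) and MMP12 was called lower (background 3.26%). There were 5 in shRRM2/shp16 against shRRM2 at a background of 11.8%, with MMP1, MMP3, MMP10 and MMP12 up (background 5.19%) and TIMP3 down (background 6.58%). Against control there were 6 at a background of 12.6%, with TIMP1 up beside those 4 genes (background 6.59%) and TIMP3 down (as were 993 of the genes tested). In the counts of shRRM2/shp16 the rise of MMP12 has the limit given above. It entered the test through the groups where it is higher. Groups did not overlap for 7, 9 and 9 members in these comparisons, against 63.6%, 64.7% and 66.2% of tested genes. The median log2 fold change of the members was 0.27, 0.71 and 0.94, and that of all tested genes was 0, 0.01 and 0.01. The comparisons share libraries, so their values are not independent of each other.

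**Figure D2:**
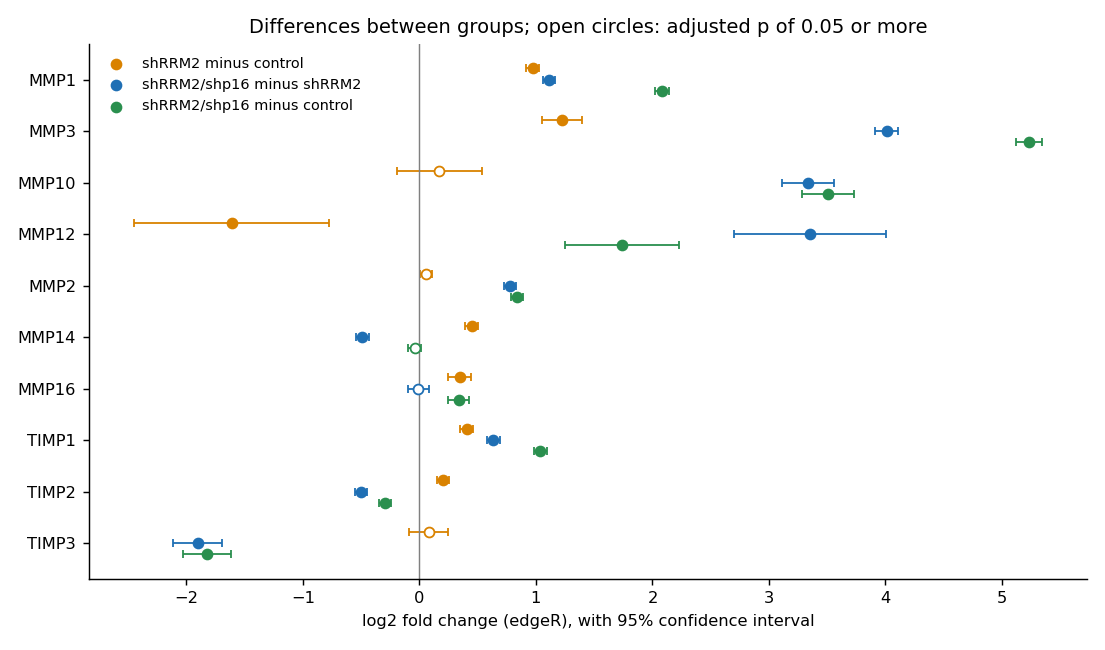
Log2 fold change of the 10 genes (horizontal axis, edgeR) in the 3 comparisons, with unadjusted 95% confidence intervals; open circles mark an adjusted p of 0.05 or more. MMP3 lies farthest to the right at 4.01 and 5.23 in the comparisons of shRRM2/shp16, and TIMP3 farthest to the left in both at -1.90 and -1.82.

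Levels per length show which transcripts dominated. RPKM (CPM divided by the exon length in kilobases) was computed from the counts, since CPM cannot be compared between genes. In control TIMP1 led at 738 ± 36.7 RPKM (SD, n = 3), followed by TIMP2 at 168, MMP14 at 139, MMP2 at 123 and MMP1 at 88.2 RPKM, while TIMP3, MMP3, MMP16, MMP10 and MMP12 stood between 5.525 and 0.419 RPKM. No neighbours in that order overlapped. In shRRM2 MMP1 (173 RPKM) passed MMP2 (127 RPKM), and MMP3 (9.71 RPKM) passed TIMP3 (5.87 RPKM), while TIMP2 and MMP14 overlapped at 193.1 and 190.0 RPKM. In shRRM2/shp16 the order ran TIMP1 (1516 RPKM), MMP1 (373 RPKM), MMP2 (219 RPKM) and MMP3 (157 RPKM), ahead of TIMP2 (137 RPKM) and MMP14 (135 RPKM), which overlapped. MMP10 followed at 16.7 RPKM and MMP16 at 4.465 RPKM, and TIMP3 (1.57 RPKM) overlapped MMP12 (1.435 RPKM) at the bottom. MMP3 thus moved from 1.17% of the summed metalloproteinase RPKM in control to 1.92% in shRRM2 and 17.3% in shRRM2/shp16.

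The 7 metalloproteinases summed to 360 ± 5.25 RPKM (SD, n = 3) in control, 506 ± 10.7 RPKM in shRRM2 and 907 ± 7.97 RPKM in shRRM2/shp16. The 4 genes of the chromosome 11 cluster made up 26.2%, 36.4% and 60.5% of these sums, and MMP1 alone 24.5%, 34.1% and 41.2%. The 3 TIMPs summed to 911 ± 39.5 RPKM, 1176 ± 5.54 RPKM and 1655 ± 41.2 RPKM, of which TIMP1 was 81.0%, 83.1% and 91.6%. The ratio of summed metalloproteinase to summed TIMP RPKM ran from 0.382 to 0.4195 in control, from 0.419 to 0.437 in shRRM2 and from 0.530 to 0.5615 in shRRM2/shp16. Control and shRRM2 overlapped in this ratio, and the shRRM2/shp16 libraries were above both. These sums were not tested, and they describe RNA, not enzyme activity.

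**Figure D3:**
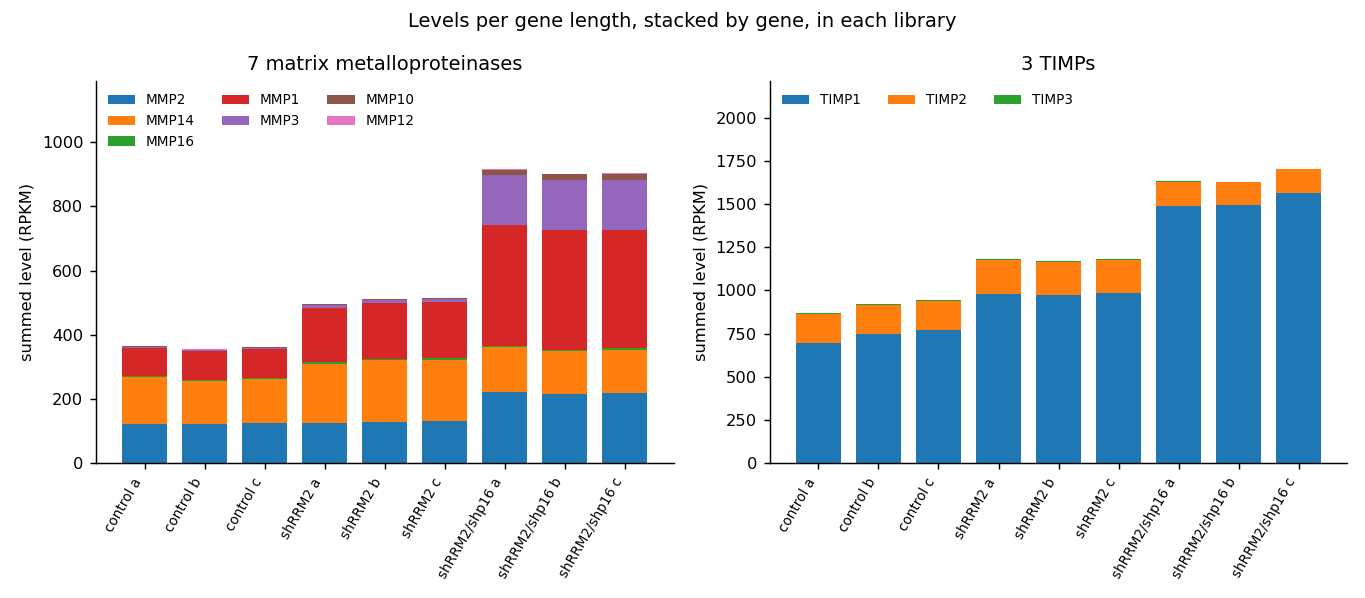
Stacked RPKM of the 7 metalloproteinases (left) and 3 TIMPs (right) in each of the 9 libraries, with bars from 0. The metalloproteinase sum reaches 902 to 916 RPKM in shRRM2/shp16 against 354 to 364 RPKM in control, mostly through MMP1 and MMP3, and TIMP1 makes up most of each TIMP bar.

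The level of TIMP3 differs between the deposited files. The authors' deposited table lists group values of 87.0 and 386 for TIMP3 in the hairpin groups, and the mean of these values was 63.4 times the mean RPKM computed from the counts of the same 6 libraries. The median ratio over 14432 genes was 2.36, and 99.7% of them had a lower ratio than TIMP3. The ratio was 5.18 for TIMP1, 4.71 for MMP2 and 0.92 for MMP1. The rank of TIMP3 among the members therefore depends on which deposited values are used, while the direction of its difference between the hairpin groups was the same in both.

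In the authors' deposited table of shRRM2/shp16 against shRRM2, 9 of the 10 members are listed as significant and MMP16 is not (log2 fold change -0.21, q-value 0.358). The authors' deposited table gives log2 fold changes of 3.90 for MMP3, 3.40 for MMP12, 3.37 for MMP10, 1.14 for MMP1, 0.80 for MMP2 and 0.69 for TIMP1. For the members that fell, the authors' deposited table lists -2.15 for TIMP3, -0.46 for TIMP2 and -0.45 for MMP14. The directions of the 9 members listed as significant are those of the counts. MMP16 had no clear direction in the counts (-0.009, edgeR adjusted p = 0.883).

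The neighbours of the cluster were examined next, from a list of 13 genes on both sides and between its members. Reads were too few to test 6 of them, the metalloproteinases MMP7, MMP8, MMP13, MMP20 and MMP27 and the pseudogene WTAPP1, whose highest group mean was 0.395 CPM (MMP8 in shRRM2). The cluster genes that rose are thus a subset of the 9 metalloproteinase genes between MMP7 and MMP13, and the other 5 were too rare to test. In shRRM2/shp16 against shRRM2, 5 of the 7 tested neighbours rose and 0 fell (background 31.9% and 29.1% of all tested genes). The largest rise was that of PDGFD, the neighbour farthest from the cluster, which starts at position 103907186 while MMP12 ends at 102875034. PDGFD, a platelet-derived growth factor, went from 3.49 to 16.7 CPM (log2 fold change 2.26, edgeR adjusted p = 7.93e-22), BIRC3, an inhibitor of apoptosis, from 4.075 to 7.22 CPM (0.82, edgeR adjusted p = 1.04e-06), and DYNC2H1, a motor protein of cilia, from 43.3 to 72.95 CPM (0.75, edgeR adjusted p = 1.36e-17). TMEM123 (0.18) and YAP1 (0.08) rose slightly, and BIRC2 (-0.03) and DCUN1D5 (0.01) did not pass. In shRRM2 against control 1 of the 7 rose (BIRC3, 0.47) and 3 fell (PDGFD, -1.80, DCUN1D5, -0.305 and YAP1, -0.23). The background there was 29.0% and 31.8%. In shRRM2/shp16 against control 4 rose and 2 fell (background 30.0% and 32.4%). The median of the tested neighbours was -0.09, 0.18 and 0.09 on the log2 scale in the comparisons in the order shRRM2 against control, shRRM2/shp16 against shRRM2 and shRRM2/shp16 against control.

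**Figure D4:**
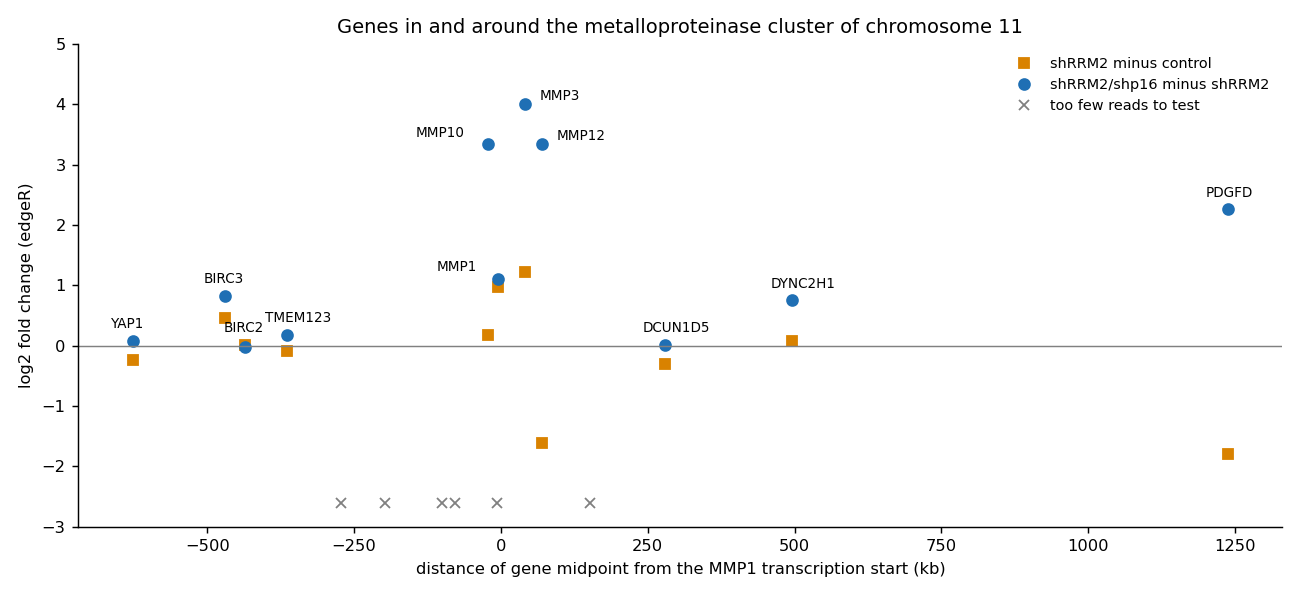
Log2 fold change (vertical axis, edgeR) of genes in and around the chromosome 11 cluster by distance of their midpoint from the MMP1 transcription start in kb, for shRRM2 minus control (squares) and shRRM2/shp16 minus shRRM2 (circles); crosses mark genes with too few reads to test. MMP3, MMP10 and MMP12 stand at 4.01, 3.34 and 3.35 in the second comparison, above all 7 tested neighbours, of which PDGFD is the highest at 2.26. MMP1, the remaining gene of the cluster, stands at 1.11, below PDGFD.

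Among the rest of the metalloproteinase family with TIMP4, 6 of 17 genes had enough reads to test, and the highest group mean among the others was 0.395 CPM, of MMP8 in shRRM2. In shRRM2 against control 4 rose and 0 fell (background 29.0% and 31.8% of all tested genes). In shRRM2/shp16 against shRRM2 1 rose and 2 fell (background 31.9% and 29.1%). In shRRM2/shp16 against control 2 rose and 2 fell (background 30.0% and 32.4%). MMP15, a membrane-anchored member, went from 2.22 to 6.62 CPM in shRRM2 (log2 fold change 1.56, edgeR adjusted p = 2.02e-11) and was at 5.95 CPM in shRRM2/shp16. MMP24 stood at 1.54, 2.79 and 0.907 CPM in the 3 groups, and fell by 1.62 on the log2 scale between the hairpin groups (edgeR adjusted p = 6.54e-08). MMP19 rose in both steps, from 11.6 to 14.7 to 17.4 CPM (0.34 and 0.24, edgeR adjusted p = 5.93e-04 and 0.00879). MMP17 fell in the second step, from 7.77 to 6.05 CPM (-0.36, edgeR adjusted p = 0.006). The list's median was 0.34, -0.26 and -0.14.

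The ADAM proteases, membrane-anchored sheddases, and the ADAMTS proteases, secreted relatives that cut proteoglycans and procollagens, gave mixed directions. Of 9 ADAM genes 4 rose and 2 fell in shRRM2 against control (median 0.26). In shRRM2/shp16 against shRRM2 3 rose and 5 fell (median -0.21). Of all tested genes 29.0% rose and 31.8% fell in the first of these comparisons, and 31.9% and 29.1% in the second. ADAM19 went from 432 to 984 CPM in shRRM2 (log2 fold change 1.19, edgeR adjusted p = 1.03e-34) and back to 321 CPM in shRRM2/shp16 (-1.62, edgeR adjusted p = 8.1e-40). ADAM12 fell in shRRM2 (-0.72, edgeR adjusted p = 5.62e-18), and ADAM28 rose from 0.714 to 2.31 CPM in the second step (1.68, edgeR adjusted p = 1.12e-05). Only in shRRM2/shp16, where ADAM28 is higher, did all its libraries reach the low-count cutoff of 0.557 CPM, which limits that call. ADAM8 rose in shRRM2 (0.61, edgeR adjusted p = 0.0374) and fell in the second step (-0.75, edgeR adjusted p = 0.0128). Against control shRRM2/shp16 was higher in ADAM17, the sheddase of tumor necrosis factor (0.67, edgeR adjusted p = 1.41e-15), and lower in ADAM33 (-0.61, edgeR adjusted p = 0.0145). Of 19 ADAMTS genes 15 were tested, and 4 rose and 7 fell in shRRM2 against control, then 6 rose and 5 fell in shRRM2/shp16 against shRRM2, with medians of 0.02 and 0. Against control shRRM2/shp16 had 9 higher and 5 lower ADAMTS genes (median 0.55) and 3 higher and 4 lower ADAM genes (median -0.14). Of all tested genes 30.0% were higher and 32.4% lower there. ADAMTS5, an aggrecanase, stood at 20.5 and 22.2 CPM in control and shRRM2 and at 230.7 CPM in shRRM2/shp16 (3.38, edgeR adjusted p = 8.18e-43). ADAMTS9 rose in the same comparison (1.72, edgeR adjusted p = 1.74e-23), as did ADAMTS8 (1.52, edgeR adjusted p = 1.11e-11). ADAMTS12 went from 51.3 to 150.3 CPM in shRRM2 (1.55, edgeR adjusted p = 1.29e-31), and ADAMTS1 fell from 647.5 to 398 CPM (-0.70, edgeR adjusted p = 1.28e-25) and stood at 1018 CPM in shRRM2/shp16. The rare ADAMTS19 went from 0.532 to 2.36 CPM in shRRM2 (2.19, edgeR adjusted p = 1.8e-08). Its control libraries, at 0.377, 0.503 and 0.715 CPM, did not all reach that cutoff. ADAMTS19 thus entered the test through the hairpin groups, where it is higher. ADAMTS15 was lower in shRRM2/shp16 than in control (-1.37, edgeR adjusted p = 3.07e-14).

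Genes whose products activate, dock or otherwise inhibit metalloproteinases were all called higher in shRRM2 against control, 12 of 12 (background 29.0%). The median was 0.49, and the call of PCSK6 has a limit given next. Among them PCSK6 was rare, at 3, 3 and 10 reads in control and 9, 13 and 10 reads in shRRM2. Its groups overlapped (edgeR adjusted p = 0.0261). Only in shRRM2 did all its libraries reach the low-count cutoff of 0.557 CPM. PCSK6 thus entered the test through the group where it is higher. In shRRM2/shp16 against shRRM2 3 rose (PLAU, TFPI2 and PCSK5) and 8 fell, with a median of -0.38 (background 31.9% and 29.1%). PCSK6 did not pass there (log2 fold change -0.38, edgeR adjusted p = 0.441). Against control 5 were higher and 4 lower in shRRM2/shp16 (median 0.11, background 30.0% and 32.4%). A2M, a broad trap for proteases, went from 21.6 to 65.9 CPM in shRRM2 (1.61, edgeR adjusted p = 5.92e-28) and back to 19.7 CPM (-1.75, edgeR adjusted p = 3.3e-29). PLAT, the tissue plasminogen activator, rose from 391 to 1100 CPM in shRRM2 (1.49, edgeR adjusted p = 1.35e-37) and stood at 894 CPM in shRRM2/shp16. TFPI2, a matrix-bound serine protease inhibitor, rose in both steps, from 344.5 to 698.6 to 2307 CPM (1.02 and 1.72, edgeR adjusted p = 3.32e-31 and 1.52e-40). PCSK5, a proprotein convertase, rose from 8.59 to 21.0 CPM between the hairpin groups (1.29, edgeR adjusted p = 2.63e-16).

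AP-1 and ETS transcription factors are known to act on metalloproteinase promoters. Of 12 such genes, 1 rose and 7 fell in shRRM2 against control (median -0.15, background 29.0% and 31.8%). In shRRM2/shp16 against shRRM2 7 rose and 5 fell (median 0.39, background 31.9% and 29.1%). In shRRM2/shp16 against control 6 rose and 6 fell (median -0.10, background 30.0% and 32.4%). FOS stood at 7.70, 3.63 and 11.6 CPM in control, shRRM2 and shRRM2/shp16, with log2 fold changes of -1.08 (edgeR adjusted p = 6.53e-10) and 1.68 (edgeR adjusted p = 1.32e-16), and FOSB at 8.89, 3.065 and 6.90 CPM moved in the same directions (-1.53 and 1.16, edgeR adjusted p = 2.29e-13 and 1.56e-09). FOSL1, a FOS-related AP-1 subunit, fell in both steps, from 324 to 176 to 85.1 CPM (-0.88 and -1.05, edgeR adjusted p = 1.66e-26 and 1.06e-27). JUN stood at 134, 92.1 and 61.2 CPM and fell by 1.13 on the log2 scale in shRRM2/shp16 against control (edgeR adjusted p = 2.6e-27). ETS2 was 0.97 higher in shRRM2/shp16 than in control (edgeR adjusted p = 2.56e-28).

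**Figure D5:**
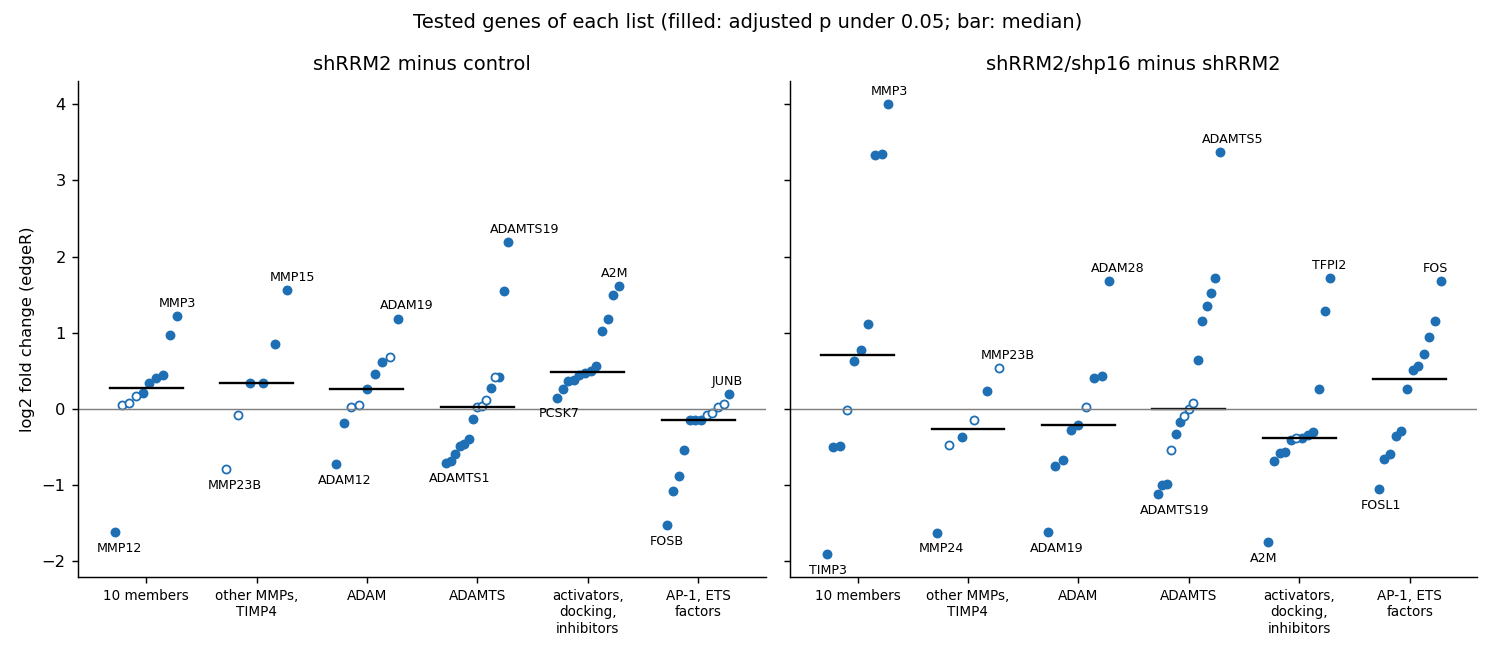
Log2 fold change (vertical axis, edgeR) of the tested genes of each list in shRRM2 minus control (left) and shRRM2/shp16 minus shRRM2 (right), with 1 point per gene, filled where the adjusted p was under 0.05, and a bar at the list median. The members' median is 0.27 on the left and 0.71 on the right, while that of activators, docking proteins and inhibitors goes from 0.49 to -0.38.

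For MMP1, MMP3 and TIMP3 the genes with the most similar pattern were sought among 11297 genes, by the Pearson correlation of log2 CPM over the 9 libraries. With 3 groups such a correlation is close to 1 for any gene that shares the order and spacing of the group levels, so it is a description. SAT1, an enzyme of polyamine breakdown, was closest to MMP1 (r = 0.9991), with 30.4, 62.1 and 136.8 CPM in control, shRRM2 and shRRM2/shp16. PAPPA, a protease of insulin-like growth factor binding proteins, followed (r = 0.999) and VCAN, the proteoglycan versican, came next (r = 0.9989), and 82 genes reached 0.99. The genes closest to MMP3 were TCF21, a transcription factor (r = 0.9993, 121.8 to 156.5 to 356.5 CPM), MANBA, a lysosomal mannosidase (r = 0.9991), and LIF, a cytokine (r = 0.9989, 79.3 to 117.5 to 421 CPM), among 78 genes that reached 0.99. S100A16 was closest to TIMP3 (r = 0.9973), with 132.5, 134.7 and 80.1 CPM, ahead of ERCC2 (r = 0.9962) and MTCH1 (r = 0.9955), among 28 genes that reached 0.99.

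The members' genomic positions are given on GRCh38 with GENCODE 29 annotation, in which all 10 are protein-coding, and counts cover the exons of the whole gene. MMP10 (ENSG00000166670) spans chromosome 11, 102770503 to 102780628, MMP1 (ENSG00000196611) 102789920 to 102798160, MMP3 (ENSG00000149968) 102835801 to 102843803 and MMP12 (ENSG00000262406) 102862736 to 102875034, all on the minus strand. MMP2 (ENSG00000087245) is on chromosome 16, 55389700 to 55506691, plus strand, MMP14 (ENSG00000157227) on chromosome 14, 22836557 to 22849027, plus strand, and MMP16 (ENSG00000156103) on chromosome 8, 88032009 to 88328025, minus strand. TIMP1 (ENSG00000102265) is on chromosome X, 47582313 to 47586789, plus strand, inside SYN1 on the other strand, with 0 exon bases shared. TIMP2 (ENSG00000035862) is on chromosome 17, 78852977 to 78925387, minus strand, and TIMP3 (ENSG00000100234) on chromosome 22, 32801701 to 32863043, plus strand, inside SYN3 on the other strand, also with 0 exon bases shared. WTAPP1, on the other strand, shares 7.6% of the MMP1 exon bases and 1.6% of those of MMP3, and had 24 counts in all 9 libraries together. AC007336.3, on the strand of MMP2, shares 3.5% of the MMP2 exon bases and had 232 counts. AC090578.1, opposite MMP16, shares 1.0% of the MMP16 exon bases and had 42 counts.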

How the data were processed

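RNA from 9 IMR90 libraries was ribosome-depleted and sequenced as stranded libraries, per the labels' protocols. The authors deposited raw read counts per Ensembl gene and library, in the layout of HTSeq. The authors also deposited 1 table with log2 RPKM values per library, and with their own comparison of shRRM2/shp16 against shRRM2 (log2 fold change, test score, p-value and q-value). Back-calculation showed the deposited log2 RPKM to be log2(x + 1), with x a thousandth of the usual RPKM, so fold changes on that scale are compressed. The log2 RPKM of shRRM2 c did not follow its count file (5.23% of genes within 1 percent, 100% in the other 8 columns). TopHat2 2.0.9, Cufflinks 2.0.2, Cuffdiff and GRCh38 are named in the submitters' processing notes, and the annotation release and strand setting are not given in the sources used here. Columns of per-sample values without a matching sample numbered 0.

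Counts were tested with edgeR 4.0.16 (R 4.3.3). The function filterByExpr kept 16561 genes with 99.8% of the counts, libraries were scaled by TMM, and all 9 libraries entered 1 quasi-likelihood fit with 1 coefficient for each group, which left 6 residual degrees of freedom. The two-sided p-values were Benjamini-Hochberg adjusted over all tested genes, and the threshold was 0.05. CPM and RPKM were computed from the counts and TMM-scaled library sizes, with union exon lengths of GENCODE 29. Replicate libraries differed by more than sampling noise (chi-square per degree of freedom 1.44 to 2.95). The scripts were tested on simulated counts.

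The members, the gene lists and the tests were chosen with earlier results of these data known. Genes of each list were named where they passed the test with a mean of at least 1 CPM, at most 3 per list and comparison by size of change, and cluster neighbours and genes named to complete a count were added after their values were seen. Alternatives were RLE size factors, DESeq2 1.42.0, other low-count filters, only the 6 libraries compared, a replicate block, limma 3.58.1 on the deposited log2 RPKM values, and leaving out each library.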

Additional observations from a re-analysis of the deposited data

How the results depend on the processing

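Of 473 values of the members under alternatives, 442 kept their direction and their side of the threshold, 13 lost the call, 6 gained it and 12 changed sign. With limma on the deposited log2 RPKM values of genes with a mean RPKM of at least 1, 4 of 9 tested members and 6575 of 12094 genes passed in shRRM2 against control, where fewer genes were tested and the log scale is compressed. The sign changes were all of differences that did not pass the test. MMP16 between the hairpin groups (-0.009) became 0.0087 without a low-count filter, 0.00031 with limma on the deposited log2 RPKM values, with all genes or with those of a mean RPKM of at least 1, 0.00019 without the shRRM2 c column and 0.068 on log2(RPKM + 0.1), and leaving out 1 library gave -0.029 to 0.0095. MMP14 in shRRM2/shp16 against control (-0.04) became 0.0075 with limma on the deposited values, also without the shRRM2 c column and at a mean RPKM of at least 1, and 0.063 on log2(RPKM + 0.1). TIMP3 in shRRM2 against control ranged from -0.075 to 0.204 when 1 library was left out. The cause of these changes was not tested.

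MMP2 passed in shRRM2 against control with RLE size factors (0.069, adjusted p = 0.0225), with at least 10 counts in every library (0.088, adjusted p = 0.00395), which left MMP12 out, and with only the 6 libraries compared (0.07, adjusted p = 0.0402), in which MMP12 was not tested either, over a range of 0.00395 to 0.724. RLE in place of TMM shifted the median of all genes by at most 0.012 on the log2 scale. The labels do not say whether equal replicate letters mark paired samples. Deviations of libraries from their group means correlated between -0.10 and 0.17 for the same letter and between -0.11 and 0.14 for different letters. Such correlations cannot show how the libraries were handled. With the letter as a replicate block 7, 9 and 9 members and 10101, 10134 and 10388 genes passed, and the block changed no member's call. Depth limits MMP12 most, at 4 to 57 reads per library.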

Other observations

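Several proteins that metalloproteinases cut are on the list of fibroblast markers, and their RNA moved in different directions in the same libraries. COL3A1, the chain of type III collagen, stood at 1722 ± 22.1 CPM (SD, n = 3) in control, at 1657 ± 21.0 CPM with the RRM2 hairpin and at 3631 ± 50.8 CPM with both hairpins, a rise of 1.13 on the log2 scale between the hairpin groups (edgeR adjusted p = 4.81e-36). COL1A1, a chain of type I collagen, stood at 12710, 13450 and 9330 CPM and fell in that comparison (log2 fold change -0.53, edgeR adjusted p = 4.02e-25). COL1A2, the other chain, stood at 6305, 7124 and 6574 CPM and fell less (-0.12, edgeR adjusted p = 1.85e-05). In shRRM2/shp16 COL1A2 was slightly above control (0.06, edgeR adjusted p = 0.018). FN1, fibronectin, stood at 10990, 14830 and 6664 CPM, with a rise of 0.43 in shRRM2 (edgeR adjusted p = 5.64e-21) and a fall of -1.15 in shRRM2/shp16 against shRRM2 (edgeR adjusted p = 6.98e-37). DCN, the proteoglycan decorin, fell in shRRM2 from 459.6 to 281 CPM (-0.71, edgeR adjusted p = 3.16e-25) and was at 275 CPM in shRRM2/shp16. LUM, lumican, stood at 41.5, 41.35 and 44.0 CPM in the 3 groups and passed in no comparison. Its edgeR adjusted p was 0.901 in shRRM2 against control, 0.159 between the hairpin groups and 0.194 in shRRM2/shp16 against control. These genes were named after their values were seen.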
